A study of Mus musculus with 12 samples.

Results

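Myosin intron miRNAs are small RNAs cut from introns of the genes for the motor proteins of heart muscle. 4 of the 932 rows of the table, chosen by name and not by their values, belong to this group: mmu-miR-208a-3p and mmu-miR-208a-5p, the arms of the miR-208a hairpin in Myh6, mmu-miR-208b-3p from Myh7, and mmu-miR-499-5p from Myh7b (the mouse prefix mmu is left out from here on). Their levels were measured by small RNA sequencing of mitochondria isolated from mouse hearts, in 6 wild-type (WT) and 6 db/db libraries. db/db mice carry a defective leptin receptor, and obesity and diabetes follow. The labels give genotype, tissue and fraction, but no strain background, age or sex. Whether the libraries of a genotype come from different animals is not stated, so the spread behind each p-value may be technical. No other fraction of the heart was among the libraries, so these values do not show whether a miRNA lay inside mitochondria. In such bulk preparations fewer muscle cells and less RNA per cell cannot be told apart.

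Myh6 encodes the fast alpha myosin heavy chain of the adult mouse ventricle, and Myh7 the slower beta chain, which rises in many stressed or hypertrophic hearts. Myh7b encodes a related slow-type myosin. Each miRNA is made from the transcript of its host gene, and miR-208a is known to act upstream of Myh7 and of miR-499 in the mouse heart. A miRNA finds its messenger RNA targets mainly through its seed, bases 2 to 8 from the 5′ end, so miRNAs with the same seed share most targets.

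All 4 miRNAs matched by name to mature sequences from RefSeq (build GRCm38.p6). They are shown because they place the 3p arms of miR-208a and miR-208b and miR-499-5p side by side, with the seed in capitals, 5′ to 3′:

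miR-208a-3p: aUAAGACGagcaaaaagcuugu

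miR-208b-3p: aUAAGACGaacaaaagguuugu

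miR-499-5p: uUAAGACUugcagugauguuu

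miR-208a-5p: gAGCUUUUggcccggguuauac

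miR-208a-3p and miR-208b-3p have the same seed. They are the same at 19 of 22 positions and differ by G10A, A16G and C18U, written as the miR-208a-3p base, the position from the 5′ end and the miR-208b-3p base. miR-499-5p shares bases 2 to 7 (UAAGAC) with both and differs from them at base 8. No other mature miRNA of the RefSeq table has these 6 bases at positions 2 to 7. miR-208a-5p has an unrelated seed. It shares bases 2 to 8 with miR-208b-5p, the other arm of the miR-208b hairpin, and with miR-6415. Bases 2 to 7 are also shared by miR-3101-3p and miR-7223-5p. Of these only miR-208b-5p is among the rows of the table. The mature forms are 21 or 22 bases long, so length has little effect on a comparison of their levels. Whether adapter joining and PCR recovered these different sequences equally was not tested. Levels and shares compared between miRNAs or arms are therefore those of reads.

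The hairpins are printed to show which arm of each was counted. The capitals mark the 5p arm and then the 3p arm:

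Mir208a: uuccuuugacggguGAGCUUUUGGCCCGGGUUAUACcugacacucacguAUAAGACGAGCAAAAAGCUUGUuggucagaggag

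Mir208b: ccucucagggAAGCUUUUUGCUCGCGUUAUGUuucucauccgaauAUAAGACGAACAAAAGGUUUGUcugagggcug

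Mir499: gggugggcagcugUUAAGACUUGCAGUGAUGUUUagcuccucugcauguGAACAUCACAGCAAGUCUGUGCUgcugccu

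In build GRCm38.p6 Mir208a lies at chr14:54949060-54949142 on the minus strand. In the GENCODE M21 annotation of that build this is intron 29 of a Myh6 transcript with 39 exons. Mir208b lies at chr14:54975700-54975776 on the same strand, in intron 31 of a Myh7 transcript with 41 exons, with 26557 bases between the hairpins. Mir499 lies at chr2:155622880-155622958 on the plus strand, in intron 19 of a Myh7b transcript with 42 exons. All 3 hairpins lie on the strand of their host.

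The libraries held 412749 to 1382046 reads over all listed rows, so 1 read was worth 0.724 to 2.42 RPM (reads scaled to a total of 1000000 over the listed rows). Where 0 reads were counted, up to 3 are allowed, which is 2.17 to 7.27 RPM. Intervals and this limit cover counting error only. Cardiac muscle markers (miR-1a-3p, miR-133a-3p, miR-208a-3p and miR-499-5p) were above 0 in all 12 libraries. Their summed level ran from 366749 to 420533 RPM in WT and from 337987 to 439537 RPM with db/db, nearly all of it from miR-133a-3p and miR-1a-3p.

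miR-499-5p was the most abundant of the 4 in every library, followed by miR-208a-5p. miR-208a-3p came next and miR-208b-3p last in 11 of 12 libraries, and in db/db library 1 these last 2 changed places. The ratio of miR-499-5p to miR-208a-5p within a library had a median of 2.85 in WT (1.70 to 3.13) and 2.29 in db/db (1.62 to 4.22). The distance from miR-208a-5p down to miR-208a-3p was wider, with a median ratio of 9.05 in WT and 19.5 in db/db libraries. miR-208a-3p exceeded miR-208b-3p in 6 of 6 WT and 5 of 6 db/db libraries. The levels of the first 3 miRNAs of this order did not overlap within either genotype, whereas those of miR-208a-3p and miR-208b-3p overlapped in both.

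miR-499-5p, from the slow-type myosin gene Myh7b, ranked 50th to 64th among all rows of a library. In WT libraries it ranged from 1307 RPM in library 1 to 1732 RPM in library 5, with a median of 1610. In db/db libraries it ranged from 1050 RPM in library 3 to 1999 RPM in library 5, with a median of 1195. 4 db/db libraries lay below the lowest WT library, while db/db library 5 was the highest of all 12. The mean was 1573 ± 162 RPM in WT against 1341 ± 366 RPM in db/db (SD, n = 6 each). The log2 fold change of db/db against WT, on the log2(RPM + 1) scale, was -0.26 ± 0.16 (SE; limma adjusted p = 0.717).

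miR-208a-5p, the more abundant arm of the Myh6 hairpin, ranked 69th to 90th. WT libraries ranged from 503 RPM in library 3 to 767 RPM in library 1, with a median of 603. db/db libraries ranged from 474 RPM in library 5 to 744 RPM in library 6, with a median of 504. The genotypes overlapped over most of this range, and 4 of the db/db values were under the WT median. The mean was 627 ± 106 RPM in WT against 561 ± 110 RPM in db/db (SD, n = 6 each). The log2 fold change stood at -0.16 ± 0.19 (SE; limma adjusted p = 0.724).

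miR-208a-3p, the arm of miR-208a that carries the shared myosin miRNA seed, had the lowest db/db level relative to WT of the 4. In WT libraries 1 to 6 it stood at 12.2, 64.7, 43.7, 87.0, 138 and 65.8 RPM. In db/db libraries 1 to 6 it stood at 1.38, 20.7, 31.1, 32.3, 50.6 and 41.2 RPM. All 6 db/db values were under the WT median of 65.3 RPM and 4 WT libraries lay above the highest db/db library. The groups overlapped through WT libraries 1 and 3. In both genotypes library 1 was the lowest and library 5 the highest. These levels rest on 8 to 133 reads in WT and on 1 to 70 reads in db/db. The single read of db/db library 1 has a 95% Poisson interval of 0.0348 to 7.67 RPM.

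The mean of miR-208a-3p was 68.6 ± 42.4 RPM in WT against 29.6 ± 17.1 RPM in db/db (SD, n = 6 each), so the db/db mean was 0.431 of the WT mean. The log2 fold change was -1.34 ± 0.55 (SE), with an unadjusted limma p of 0.0170 and an adjusted p of 0.504. It did not pass the threshold of 0.05. Without db/db library 1 the log2 fold change was -0.70 (limma adjusted p = 0.772), and without WT library 1 it was -1.76 (limma adjusted p = 0.0856).

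miR-208b-3p, from the beta myosin gene Myh7, was near the detection limit. In WT libraries 1 to 6 it stood at 0, 0, 16.2, 23.6, 6.23 and 14.8 RPM, or 45 reads in all. In db/db libraries 1 to 6 it stood at 11.0, 12.4, 7.77, 15.5, 22.4 and 7.27 RPM, or 69 reads in all. It was above 0 in 4 of 6 WT and in 6 of 6 db/db libraries, and the ranges overlapped. The mean was 10.1 ± 9.59 RPM in WT against 12.7 ± 5.64 RPM in db/db (SD, n = 6 each). The log2 fold change was 1.09 ± 0.88 (SE; limma adjusted p = 0.717), a value that moves with the 2 WT libraries at 0. It was 0.57 without WT library 1 or without WT library 2, 0.29 with a pseudocount of 10 RPM, 2.16 with a pseudocount of 0.1 RPM and 0.42 in edgeR and in DESeq2.

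**Figure D1:**
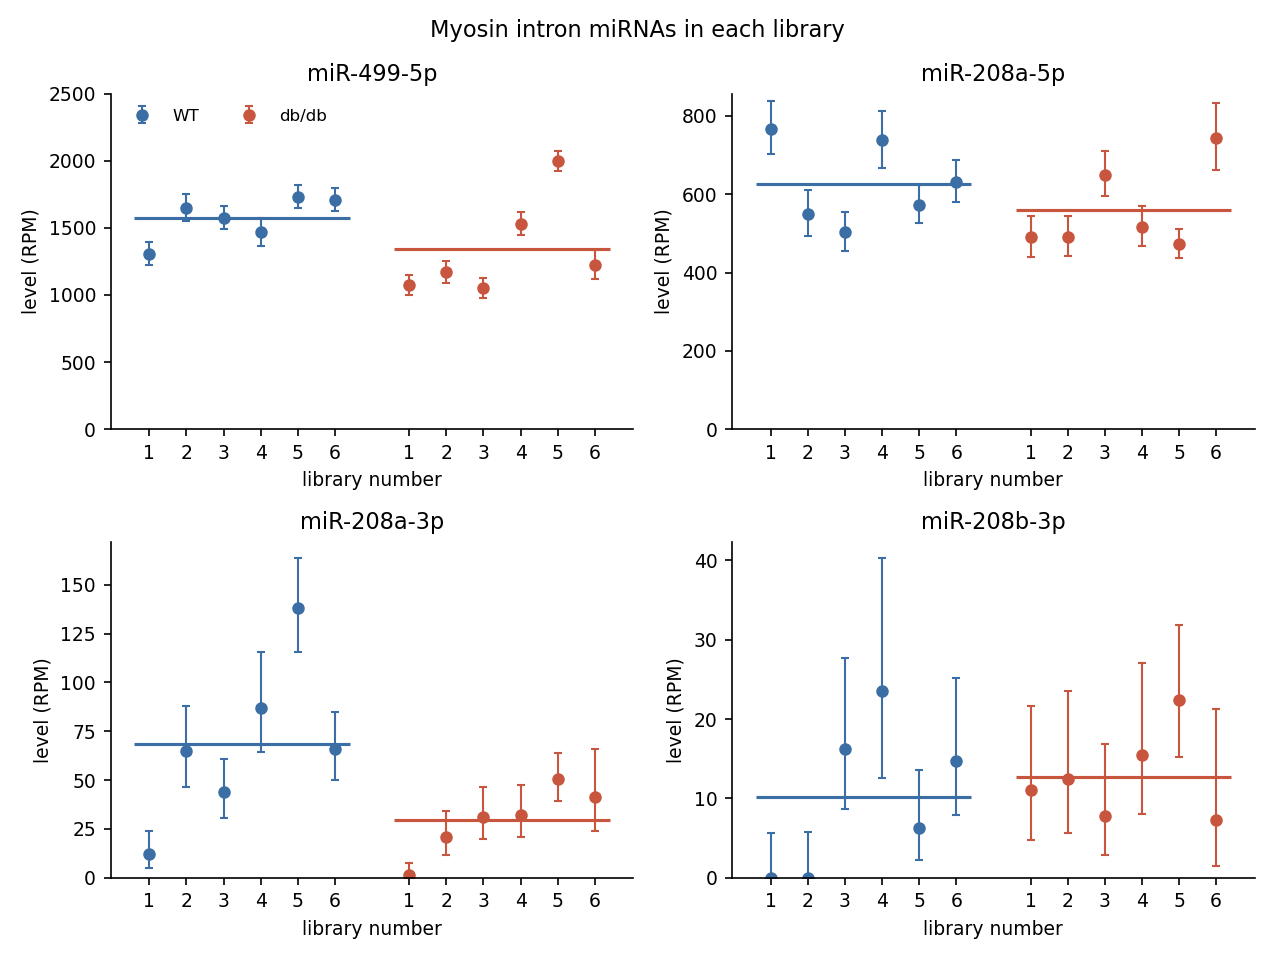
Level of each myosin intron miRNA in RPM (vertical axis, linear, from 0) in WT and db/db libraries 1 to 6 (horizontal axis). Points are libraries with 95% Poisson intervals and lines are genotype means; the means of miR-208a-3p are 68.6 RPM (WT) and 29.6 RPM (db/db), with library 1 lowest in both.

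None of the 4 passed the limma test over the whole table, where 1 of 646 rows tested (0.155%) did: miR-22-3p, which was lower in db/db. At an unadjusted limma p under 0.05 there was 1 of the 4, miR-208a-3p, against 8.98% of all rows in either direction and 4.64% lower in db/db. On the recovered reads edgeR and DESeq2 also called 0 of the 4, where they called 0.464% of 646 rows and 8.97% of the 145 rows with a DESeq2 adjusted p. DESeq2 gave an adjusted p for only 2 members, miR-208a-5p and miR-499-5p. In both tools 1 of the 4, again miR-208a-3p, had an unadjusted p under 0.05. Over all rows this held for 24.6% in edgeR and 7.21% in DESeq2, and over the 304 rows averaging 10 RPM or more for 14.5% and 14.1%, so 1 of 4 is close to the edgeR share over all rows. 3 of the 4 had negative values, with a median of -0.21, while 338 of 646 rows were negative, with a median of -0.04. miR-208a-3p was 20th of the 646 rows when ordered by p.

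**Figure D2:**
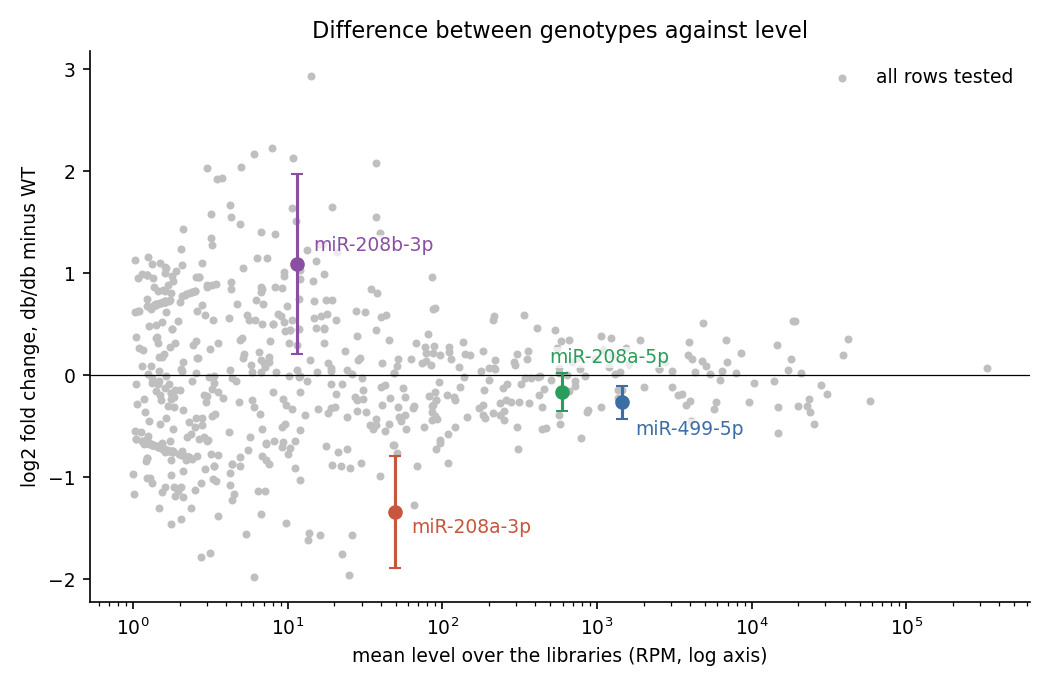
Log2 fold change of db/db minus WT (vertical axis) against mean level in RPM (horizontal axis, logarithmic) for the 646 rows tested, in grey, with the 4 myosin intron miRNAs in colour and bars of 1 SE. Low rows are more widely spread; miR-208a-3p stands at -1.34 and miR-499-5p at -0.26.

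The 2 arms of miR-208a differed in how many of the hairpin's reads each held, a share that does not depend on the library total. The 3p arm, the form usually meant by miR-208a, was the minor one in all 12 libraries. In WT it held 1.57% of the reads of both arms in library 1 (8 of 511 reads; 95% exact Clopper-Pearson interval 0.678 to 3.06%) and 19.4% in library 5 (133 of 685 reads; 16.5 to 22.6%), with a median of 9.99%. In db/db it held 0.280% in library 1 (1 of 357 reads; 0.00709 to 1.55%) and 9.66% in library 5 (70 of 725 reads; 7.60 to 12.0%), with a median of 4.90%. All 6 db/db shares were under the WT median, and the groups overlapped.

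The mean share of the 3p arm was 9.92% ± 5.74 in WT and 4.95% ± 3.03 in db/db (SD, n = 6 each), a difference of -4.97 percentage points. The exact permutation test over all assignments of the libraries (two-sided) gave p = 0.0801, and p = 0.160 after Benjamini-Hochberg adjustment over the 4 ratios compared. These ratios were chosen knowing from an earlier look at the same data that miR-208a-3p was lower in db/db. For every ratio that contains miR-208a-3p the p-values are therefore a description and no independent test. Without WT library 1 the difference was -6.64 points (exact permutation adjusted p = 0.0346), the one fit in which it passed, and without db/db library 1 it was -4.04 points (exact permutation adjusted p = 0.355). Over all 93 hairpins with both arms listed and a mean of at least 100 RPM, a comparison added after the data were seen, the exact permutation adjusted p of miR-208a was 0.788. No hairpin passed there (0%). With 6 libraries per genotype, the lowest p of this test is too high for a single hairpin to pass alone after adjustment over 93. The 0% and the adjusted p of miR-208a therefore cannot decide whether arm use differed. An unadjusted exact permutation p under 0.05 was found for 5 hairpins (5.38%): miR-22, miR-23a, miR-199a, miR-17 and let-7i, named after their values were seen. The 5p arm was the major one in 52 of the 93 hairpins. The minor arm of miR-208a, at 7.43% over all libraries, was the 30th highest minor-arm share, against a median of 1.22%.

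In the other 2 hairpins the minor arm was at 0 in most libraries. miR-499-3p was above 0 in 4 of 12 libraries, at 4.54 to 18.1 RPM (4 to 14 reads), each above the 3-read limit of its library. miR-208b-5p was above 0 in 1 of 12, db/db library 4, with 2 reads (2.58 RPM). Of the miR-208a and miR-208b arms with the seed AGCUUUU, miR-208a-5p at 474 to 767 RPM was thus the only one measured above that limit.

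miR-208a-3p and miR-208b-3p carry the same seed and come from the alpha and beta myosin genes, so their balance was compared within each library. miR-208b-3p made up 0, 0, 27.1, 21.3, 4.32 and 18.3% of the sum of both in WT libraries 1 to 6. With 0 reads in WT libraries 1 and 2, shares of up to 37.5% and 7.32% are allowed. In db/db libraries 1 to 6 it made up 88.9, 37.5, 20.0, 32.4, 30.7 and 15.0%. All 6 db/db shares were over the WT median of 11.3%, and the groups overlapped between 15.0 and 27.1%. The shares rest on few reads. That of db/db library 1 comes from 8 of 9 reads (95% exact Clopper-Pearson interval 51.8 to 99.7%) and that of db/db library 5 from 31 of 101 reads (21.9 to 40.7%).

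The mean share of miR-208b-3p was 11.8% ± 11.8 in WT and 37.4% ± 26.6 in db/db (SD, n = 6 each), a difference of 25.6 percentage points. The exact permutation test (two-sided) gave p = 0.0260, and p = 0.104 after adjustment over the 4 ratios. This ratio too was chosen with the lower miR-208a-3p already known, so these p-values are a description. Without db/db library 1 the difference was 15.3 points (exact permutation adjusted p = 0.199), and without db/db library 6 it was 30.1 points (exact permutation adjusted p = 0.0433), the one fit in which it passed. The share has miR-208a-3p in its denominator, and the RPM of miR-208b-3p itself overlapped between the genotypes.

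**Figure D3:**
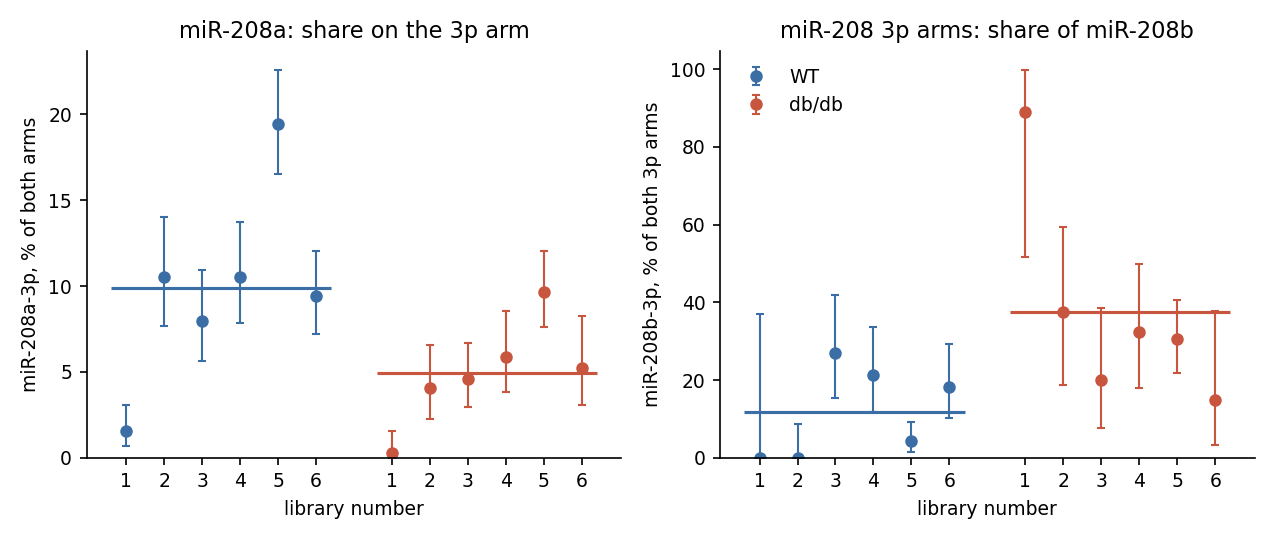
Left, miR-208a-3p as a percent of the reads of both miR-208a arms; right, miR-208b-3p as a percent of miR-208a-3p and miR-208b-3p together, in WT and db/db libraries 1 to 6 (horizontal axes). Points are libraries with 95% exact binomial intervals and lines are genotype means: 9.92% and 4.95% on the left, 11.8% and 37.4% on the right.

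Relative to miR-499-5p, neither arm of miR-208a passed the test. The log2 ratio of miR-208a-3p to miR-499-5p averaged -4.80 ± 1.04 in WT and -5.88 ± 1.48 in db/db (SD, n = 6 each), a difference of -1.08 (exact permutation test, two-sided, p = 0.171, adjusted p = 0.228). It was -0.49 without db/db library 1 (exact permutation adjusted p = 0.465) and -1.44 without WT library 1, the one fit in which it passed (exact permutation adjusted p = 0.0390). The log2 ratio of miR-208a-5p to miR-499-5p averaged -1.34 ± 0.37 in WT and -1.24 ± 0.53 in db/db, a difference of 0.10 (exact permutation test, two-sided, p = 0.723, adjusted p = 0.723). Its sign turned without db/db library 3 or without db/db library 6.

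Among the 3 miRNAs matched to sequences with UAAGAC at bases 2 to 7, the reads came almost wholly from miR-499-5p. Rows without a matched sequence were not searched for these bases. The sum of miR-499-5p, miR-208a-3p and miR-208b-3p was 1652 ± 195 RPM in WT against 1383 ± 383 RPM in db/db (SD, n = 6 each). miR-499-5p held 92.3 to 99.1% of that sum in WT and 96.2 to 98.9% in db/db libraries. miR-208a-3p held 0.925 to 7.36% in WT and 0.127 to 3.24% in db/db. miR-208b-3p held at most 1.49% in WT and at most 1.08% in db/db libraries.

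Across the 12 libraries miR-208a-3p had a positive relation with miR-499-5p, which comes from another chromosome and host gene. In each genotype library 5 was the highest for both miRNAs and also held the most reads (962697 in WT, 1382046 in db/db). A part of depth in this relation was not tested. On the log2(RPM + 1) scale miR-208a-3p and miR-499-5p had Pearson's r = 0.67 (permutation test, p = 0.0115, adjusted over 3 pairs p = 0.0344) and Spearman's rho = 0.76 (permutation test, p = 0.00629, adjusted p = 0.0189). Without WT library 1 and db/db library 1, the 2 libraries farthest from the median of miR-208a-3p, r was 0.61 (permutation test, p = 0.0599, adjusted p = 0.180). Spearman's rho was then 0.70 (permutation test, p = 0.0311, adjusted p = 0.0932). The coefficients changed little and the adjusted p was above 0.05 with 10 libraries. Whether the call was lost through those 2 libraries or through the smaller number was not tested. For deviations from the genotype mean, with all 12 libraries, r was 0.58 (permutation test, p = 0.0570, adjusted p = 0.171), so the call was lost there as well.

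The arms miR-208a-3p and miR-208a-5p had r = 0.20 (permutation test, p = 0.563, adjusted p = 0.563) and rho = 0.13 (permutation test, p = 0.683, adjusted p = 0.683), and r = 0.29 without the same 2 libraries. miR-208a-5p and miR-499-5p had r = -0.24 (permutation test, p = 0.456, adjusted p = 0.563) and rho = -0.22 (permutation test, p = 0.501, adjusted p = 0.683), and r = -0.07 without WT library 1 and db/db library 6. The difference between these correlations was not tested.

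**Figure D4:**
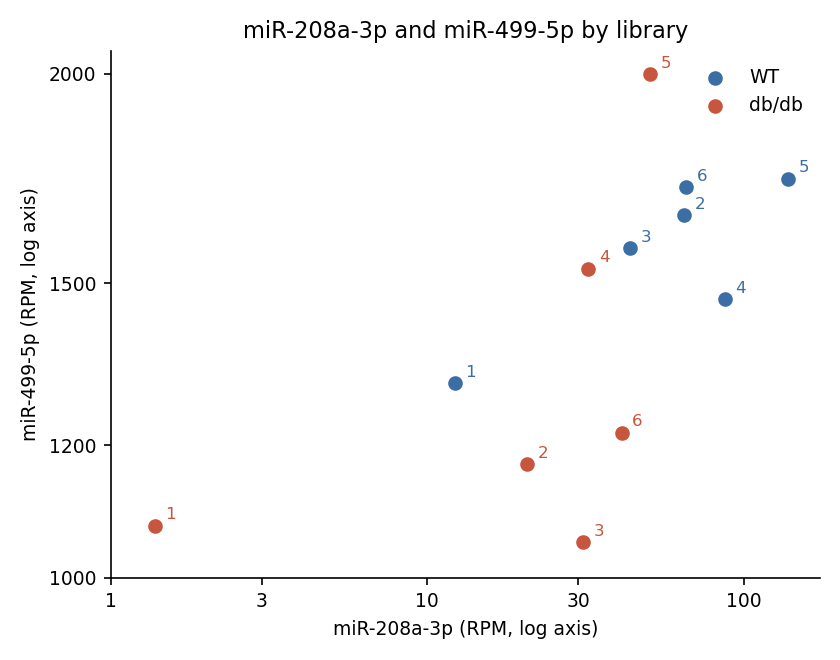
miR-499-5p against miR-208a-3p, both in RPM on logarithmic axes, with each point a library labelled by its number and coloured by genotype. Library 1 of each genotype lies at the low end of miR-208a-3p and library 5 at the high end; r is 0.67 with all 12 libraries and 0.61 without both libraries numbered 1.

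Other named miRNAs with a mean of at least 100 RPM were ordered by how closely their centred log2 profile over the 12 libraries followed each member, as the root mean square difference. For miR-499-5p the nearest of 145 were the stress-responsive miR-21a-5p (0.18), miR-30e-5p (0.18) and miR-30a-5p (0.19), against a median of 0.43 over all 145. These 3 had log2 fold changes of -0.45, -0.31 and -0.19, none of which passed. For miR-208a-5p the nearest were miR-149-5p (0.20), miR-378a-5p (0.21) and miR-100-5p (0.22), against a median of 0.39. For miR-208a-3p the nearest of 146 were miR-106b-5p (1.11), miR-374b-5p (1.12) and miR-181c-5p (1.15), against a median of 1.49. The members' own root mean square spreads, with which these distances compare, were 0.28 for miR-499-5p, 0.25 for miR-208a-5p and 1.46 for miR-208a-3p.

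Among 13 other muscle miRNAs on the list, 8 were in the table and 6 were tested, with 2 positive and 4 negative values, a median log2 fold change of -0.27 and 0 calls by limma, edgeR or DESeq2 (which gave an adjusted p for 4 of the 6). At an unadjusted p under 0.05 there were 0 of the 6 in each of these tools. The muscle miRNAs miR-133a-3p and miR-1a-3p, the most abundant of the list, had log2 fold changes of 0.07 ± 0.11 and -0.25 ± 0.14 (SE). miR-133b-3p had a log2 fold change of -0.29 ± 0.15 and miR-133a-5p of -0.32 ± 0.18 (SE), close to that of miR-499-5p and likewise short of the threshold.

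All 17 miRNAs of a cardiac stress and hypertrophy list were tested, with 5 positive and 12 negative values, a median of -0.30 and 0 calls by limma. Of the 17, 8 had an unadjusted limma p under 0.05, against 8.98% of all rows. All 17 averaged over 10 RPM, and in the separate limma fit of rows averaging 10 RPM or more 44 of 304 rows were under 0.05. How many of the 17 were under 0.05 in that fit was not counted, so these shares are not like for like. edgeR called 0 of the 17 and had 6 at an unadjusted p under 0.05, against 24.6% of all rows and 14.5% of those 304. DESeq2 called 1 lower, miR-24-3p, among 12 with an adjusted p, where it called 8.97% of all such rows (2.07% lower). Its unadjusted p was under 0.05 for 5 of the 17, against 7.21% of all rows and 14.1% of those 304. The 4 most abundant were miR-24-3p at -0.36 ± 0.12, miR-23a-3p at -0.23 ± 0.12, miR-29a-3p at 0.05 ± 0.13 and miR-27b-3p at -0.07 ± 0.13 (log2 fold change, SE). Earlier results of these data were known when the list was drawn up, so its count is a description.

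Marker miRNAs of other cell types were measured in the same libraries. Fibroblast and smooth muscle markers, 6 in all, summed to 37570 to 52840 RPM in WT against 27173 to 44270 RPM in db/db, with 4 of 6 negative. The 5 erythroid markers summed to 18648 to 41659 RPM in WT against 35661 to 58147 RPM in db/db, with 4 of 5 positive. Nearly all of that sum came from miR-486b-5p and miR-486a-5p, with means over all libraries of 18941 and 18574 RPM. The mean of miR-451a was 1528 RPM and its log2 fold change 0.26 (limma adjusted p = 0.717). The erythroid sum thus follows the miR-486 pair. Whether that pair came from red cells was not tested. The 2 endothelial markers summed to 18852 to 29569 and 15588 to 25095 RPM, both negative, and the 5 leukocyte markers to 3308 to 5171 and 2981 to 6769 RPM, with 3 of 5 positive. No marker of these 4 lists was at 0 in every library, and limma called 0 of the 18 (9 at an unadjusted p under 0.05, against 8.98% of all rows). In the separate limma fit of rows averaging 10 RPM or more 44 of 304 rows were under 0.05, and the markers under 0.05 in that fit were not counted. Some of the 18, such as miR-21a-5p, are also on the cardiac stress and hypertrophy list, so the counts overlap. The near-identical miR-486a-5p and miR-486b-5p make up 2 of the 9. The 4 most abundant fibroblast and smooth muscle markers, miR-143-3p, miR-145a-5p, miR-21a-5p and miR-199a-3p, had log2 fold changes of -0.48, -0.33, -0.45 and 0.06, and the endothelial miR-126a-3p and miR-126a-5p of -0.30 and -0.11. Those of the leukocyte miR-150-5p, miR-223-3p, miR-155-5p and miR-142a-5p were 0.20, -0.72, 0.28 and 0.16, and those of the erythroid miR-486b-5p, miR-486a-5p, miR-451a and miR-144-5p were 0.53, 0.53, 0.26 and -0.53. edgeR and DESeq2 called 0.31% and 6.9% of the rows with an adjusted p higher in db/db. On the erythroid list both tools called only miR-486a-5p and miR-486b-5p, which are near-identical copies, higher in db/db. DESeq2 called the leukocyte miR-223-3p lower (2.07% of such rows). The part of these markers in the values of the myosin intron miRNAs was not tested.

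The direction of each member's fold change was the same in all fits run. miR-208a-3p ranged from -1.76 to -0.70, miR-208a-5p from -0.25 to -0.09, miR-499-5p from -0.39 to -0.16 and miR-208b-3p from 0.29 to 2.16. Without WT library 4 and db/db library 6, which had the fewest reads (551591 and 412749), they stood at -1.40, -0.20, -0.26 and 1.62. No member passed in any fit that gave it an adjusted p.

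**Figure D5:**
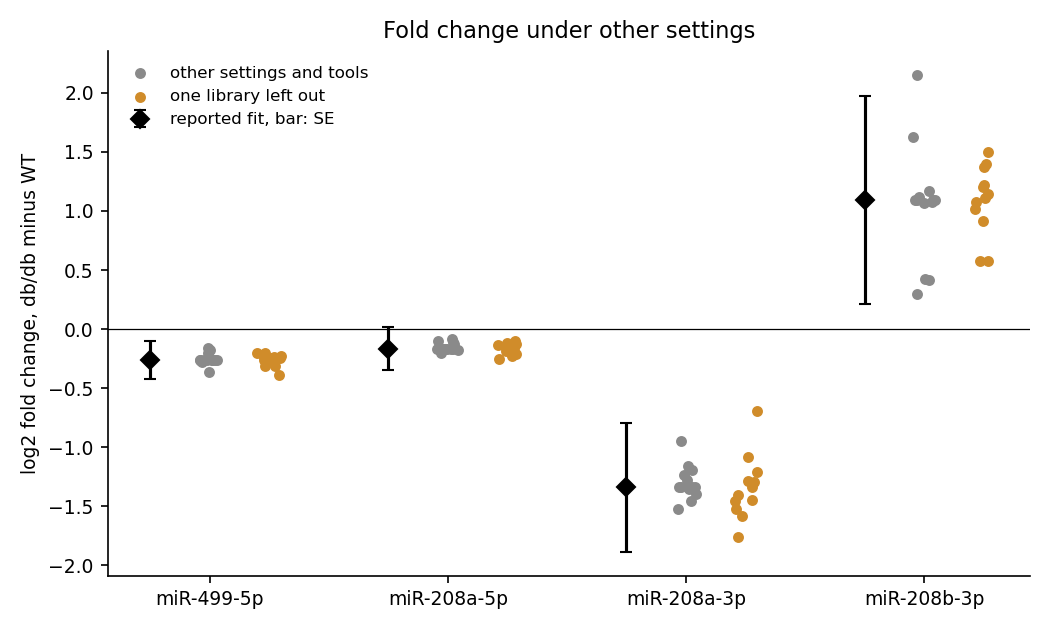
Log2 fold change of db/db minus WT (vertical axis) for each myosin intron miRNA (horizontal axis). Diamonds are the reported limma values with bars of 1 SE, grey points the other settings and tools and orange points the fits without 1 library; miR-208a-3p stays below 0 throughout, from -1.76 to -0.70, and miR-208b-3p above 0.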

How the data were processed

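Small RNA of cardiac mitochondria was sequenced in 6 WT and 6 db/db libraries. Per the labels' protocols, adapters were joined to total RNA, followed by cDNA synthesis, PCR and gel purification. The authors deposited values named TPM. Each column sums to 1000000 and 100% of values are whole reads within 0.01 of a read, so the deposited unit was treated as RPM, with no length term. The submitters' processing notes name build GRCm39. Which aligner and miRNA annotation were used is not given in the sources used here. Sequences and positions come from RefSeq and GENCODE M21 on GRCm38.p6; 635 of 730 named rows matched.

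Genotypes were compared with limma 3.58.1 (R 4.3.3; abundance trend, log2(RPM + 1), 646 rows averaging 1 RPM or more, no replicate block, two-sided, Benjamini-Hochberg over all rows, threshold 0.05). edgeR 4.0.16 and DESeq2 1.42.0 were run on the recovered reads. Ratios were compared by exact permutation and correlations with 100000 resamples. Fits were tested on simulated data. No 2 libraries were alike within sampling noise (66 pairs, chi-square per degree of freedom 18.6 or more).

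Members, lists and ratios were chosen with earlier results of these data known. All 4 members are described. Other miRNAs were named by rule: the 3 nearest in profile to each of 3 members, the 4 most abundant of each list with a mean of at least 10 RPM, seed relatives and other arms of the hairpins. miR-22-3p (the 1 row called) and the 5 hairpins with an unadjusted arm-share p under 0.05 fall outside it and were named after their values were seen.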

Additional observations from a re-analysis of the deposited data

Results flagged for a closer look

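Single libraries distant from the remaining 5 were looked for in 22 sets of values, and 4 were found. A rate of 1 in 20 would give 1.1 for 22 sets. Some sets share reads, and the db/db set of miR-208b-5p is at 0 in all but 1 library. The 4 found therefore cannot be weighed against that rate. The log2 ratio of miR-208a-3p to miR-499-5p was -8.82 in db/db library 1 and at least -5.75 in the other db/db libraries, a gap of 0.774 of the range. In the same library miR-208b-3p made up 88.9% of miR-208a-3p and miR-208b-3p together, with 37.5% as the next highest (a gap of 0.695). Both values come from the single miR-208a-3p read of that library. That library held 726885 reads in all, of which 781 were miR-499-5p. miR-208b-5p was above 0 in db/db library 4 alone, at 2.58 RPM or 2 reads, which is below the limit that a count of 0 allows. The depth of db/db library 5 was 1382046 reads, with 773784 as the next highest of its genotype (a gap of 0.628). It also had the highest miR-499-5p level of the 12 libraries (1999 RPM). A part of depth in that level was not tested.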

How the results depend on the processing

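All 4 members kept their direction and none passed under 13 or 14 other settings and 12 fits without 1 library; DESeq2 gave no adjusted p for miR-208a-3p and miR-208b-3p, and neither was in the fit at a mean of at least 100 RPM. Without 1 library the log2 fold change ranged from -1.76 to -0.70 for miR-208a-3p, -0.25 to -0.10 for miR-208a-5p, 0.57 to 1.5 for miR-208b-3p and -0.39 to -0.20 for miR-499-5p. With the replicate block limma gave miR-208a-3p -1.34 (adjusted p = 0.126) and miR-499-5p -0.26 (adjusted p = 0.518). The correlation of same-numbered libraries' deviations was over 0.1 for 1 of 6 pairs over all rows tested (-0.05 to 0.12) and for 5 of 6 over rows averaging 100 RPM or more (-0.02 to 0.59), with 1 of 6 closest to its own number in both. The labels do not say that equal numbers form a pair, so the reported fit has no replicate block. These correlations cannot decide whether the libraries are paired. miR-208a-3p was lower in db/db in 6 of 6 same-numbered comparisons. The share of all rows for which this held was not counted. With that block the exact sign-flip permutation p for the 3p share of miR-208a was 0.0312 (adjusted p = 0.125). This is the lowest p that 6 pairs allow, so it could not pass alone after adjustment over the 4 ratios. Against 1 row called over the table limma called 0 without a trend, unfiltered, with quantile normalization, with pseudocounts of 0.1 and 10 RPM, with minimum means of 10 and 100 RPM, and without WT 4 and db/db 6, but 2 after median-of-ratios scaling, 9 with the replicate block and 0 to 7 without 1 library; edgeR called 3 and DESeq2 13, with adjusted p for 145 rows. The cause was not tested. Without 1 library the difference ranged from -6.64 to -3.07 points for the 3p share of miR-208a, from 15.3 to 30.1 points for the miR-208b-3p share, from -1.44 to -0.49 for the log2 ratio of miR-208a-3p to miR-499-5p and from -0.01 to 0.27 for that of miR-208a-5p, which turned sign at -0.0111 without db/db library 3 and -0.00647 without db/db library 6. The correlation of miR-208a-3p with miR-499-5p fell short at r = 0.577 for deviations from the genotype mean and r = 0.613 without 2 libraries. Rescaling without the 10 most abundant rows moved no mean level by more than 1 SD. Depth limits miR-208b-3p most, with 0 to 31 reads per library.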
